A study of Mus musculus with 19 samples.

Results

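The genes that build and run the DNA replication machinery were followed in the lungs of mice dosed orally with a mixture of 8 polycyclic aromatic hydrocarbons (8PAH-Mix). The set was a list of 40 gene symbols, chosen by name, and every probe whose RefSeq identifier mapped to one of them was taken. All 40 had a probe (46 probes in all), and 37 genes with 41 probes passed the filter on dim signals and were tested, out of 14731 gene symbols tested and 20660 on the array. Adult male MutaMouse, a transgenic strain used for mutation assays, aged about 12 weeks, were given the mixture in olive oil by gavage on 28 consecutive days, and lung was taken 72 h after the last dose. The groups were D0 (olive oil alone, the vehicle control, 5 mice), D1 (15 mg BaP equivalents/kg-day, 4 mice), D2 (30 mg BaP equivalents/kg-day, 5 mice) and D3 (60 mg BaP equivalents/kg-day, 4 mice), where BaP is benzo[a]pyrene. All mice were of the same strain and sex and received the same vehicle. On each 2-colour array the lung RNA of 1 mouse was labelled red, and the green channel held the same reference on all arrays, a mixture of RNA from 11 mouse cell lines. The values are log2 ratios of lung over reference, so a value of 1 is a 2-fold higher signal in lung.

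Before a cell divides, origin recognition proteins and the loading factors CDC6 and CDT1 place the MCM helicase on DNA, and its activators then open the strands in S phase. Primase and polymerase alpha start each new strand, the sliding clamp and its loader hold the copying polymerases in place, and chromatin factors rebuild the packaging behind the fork. Most of these genes are transcribed as cells enter S phase, under E2F transcription factors. In adult lung most cells are at rest, and whole lung RNA does not show which cells these transcripts come from.

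Of the 3 genes that were not tested, Orc1 (NM_011015, the largest subunit of the origin recognition complex) was not well above background in the lung channel of any mouse, while the reference channel was well above background for all 18. Ccne2 (NM_001037134, a cyclin of the G1/S transition) and Brca1 (NM_009764, a repair factor at stalled forks) were well above background in neither channel of any mouse. Of the 37 tested genes, 36 had a mean ratio under 0 in the vehicle control, that is, less signal in lung than in the pool of cell lines. The exception was E2f2, a transcription factor that drives S phase entry, at 0.18 ± 0.09 (SD, n = 5). The tissue label was borne out by markers of lung epithelium and endothelium, whose mean ratio over 10 genes lay between 5.55 and 6.50 in every mouse.

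Array facts that touch these values were as follows. The median spot signal was 114 to 152 in red and 65.0 to 93.0 in green, and 54.5% to 64.7% of the spots were well above background in red. The arrays lay on 3 slides, and every slide held all 4 groups. Each dose kept to its own array column, and the effects of column and dose cannot be told apart. The mouse labelled D2 Mouse 23 carries a number that falls among those of D1, and by the methods D1 would hold 1 more mouse. It was kept as labelled. Mouse 35 of D3 had 2 arrays, which were averaged, and over the 37 genes they differed by a median of 0.09 on the log2 scale. Mice 24 (D1), 28 (D2) and 35 (D3) stood apart in a list of 7 cardiac muscle genes, whose mean against the vehicle control was -2.20, -2.21 and -2.12, while the other mice lay between -0.46 and 1.70. For the replication genes described by mouse or with standard errors, the value without these mice is given where leaving 1 of them out ended a call or moved the change by over 1.5 times.

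Promoters are shown for Rrm2 and Uhrf1, which were called higher at every dose, for Mcm2, called at D2 and D3, and for Mcm6, which held the most E2F-type matches of these genes, because genes of this kind are known as E2F targets. Of the 40 genes, 33 matched an entry in the table of RefSeq promoters used here (build GRCm38.p6), with 37 windows of 300 bases, 250 before and 50 after the start site. Both strands were searched for the E2F-type letters TTTCCCGC, TTTCGCGC, TTTGCCGC and TTTGGCGC, for CCAAT, the box bound by NF-Y, and for the CHR letters TTTGAA and TTCGAA, an element known from genes of later cell cycle phases. In the stretches of 250 bases before the start site below, written along the gene's own strand, the capitals mark E2F-type letters (runs starting with TTT on the strand shown, joined to an overlapping match in Mcm6) and CCAAT or, on the other strand, ATTGG.
Rrm2, chr12:24708004-24708253, + strand: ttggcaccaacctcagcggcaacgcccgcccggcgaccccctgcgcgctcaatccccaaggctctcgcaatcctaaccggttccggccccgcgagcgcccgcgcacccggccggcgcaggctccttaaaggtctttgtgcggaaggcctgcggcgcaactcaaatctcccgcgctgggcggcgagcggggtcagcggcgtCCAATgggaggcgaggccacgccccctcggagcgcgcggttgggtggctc
Uhrf1, chr17:56304063-56304312, + strand: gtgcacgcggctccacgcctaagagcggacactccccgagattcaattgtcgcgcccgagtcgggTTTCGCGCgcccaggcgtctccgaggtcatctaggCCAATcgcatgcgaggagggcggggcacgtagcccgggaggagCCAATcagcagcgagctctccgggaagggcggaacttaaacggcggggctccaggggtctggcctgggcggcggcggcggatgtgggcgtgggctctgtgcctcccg
Mcm2, chr6:88898781-88899030, - strand: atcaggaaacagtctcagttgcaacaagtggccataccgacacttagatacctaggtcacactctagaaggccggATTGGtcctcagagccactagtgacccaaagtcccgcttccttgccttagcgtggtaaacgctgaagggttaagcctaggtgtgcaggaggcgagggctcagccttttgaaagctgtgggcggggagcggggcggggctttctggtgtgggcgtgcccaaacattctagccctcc
Mcm6, chr1:128359706-128359955, - strand: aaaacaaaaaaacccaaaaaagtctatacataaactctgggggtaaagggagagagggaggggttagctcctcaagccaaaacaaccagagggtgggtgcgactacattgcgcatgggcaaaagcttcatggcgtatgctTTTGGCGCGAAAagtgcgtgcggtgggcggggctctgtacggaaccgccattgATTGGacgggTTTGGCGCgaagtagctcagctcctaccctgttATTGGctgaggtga

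The E2F-type letters stood in 11 of the 37 member windows (29.7%) and in 2.26% of all 32851 windows, CCAAT in 64.9% of the member windows and 37.4% of all, and the CHR letters in 18.9% and 19.2%. Mcm6 held 3 E2F-type matches, of which 2 on opposite strands overlapped, at positions -110 and -106 from the start site. Uhrf1 held 1 match in this window and none in its other window. The windows of Rrm2 and Mcm2 held none, which says only that these letters were not there. Of the genes that passed the overall dose test described further on, 4 of 13 with a window held the E2F-type letters, against 6 of 18 tested genes that did not pass.

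The whole list lay higher in treated than in control lung at each dose. Averaged over the 37 genes and set against the vehicle control mean, the D0 mice lay between -0.05 and 0.03, the D1 mice between 0.24 and 0.41, the D2 mice between 0.16 and 0.60 and the D3 mice between 0.19 and 0.48 on the log2 scale, so no treated mouse overlapped the controls. The dose mean exceeded the control mean in 35, 35 and 33 genes in the order D1, D2, D3, and the median changes were 0.33, 0.38 and 0.28, where the median over all 30994 tested probes was 0.01 at D1 and close to 0 at the other doses. Groups were compared with limma in 1 fit over all 18 mice, with p-values adjusted by Benjamini-Hochberg over all tested probes, and a gene was called where the adjusted p did not exceed 0.05 and the change reached 1.5-fold. Called higher were 2 genes at D1 (Rrm2 and Uhrf1), 4 at D2 (Cdt1, Mcm2, Rrm2 and Uhrf1) and 4 at D3 (Gins1, Mcm2, Rrm2 and Uhrf1), where 0.594%, 0.436% and 1.21% of all tested probes were called higher. No gene was called lower, nor was any lower at an unadjusted p under 0.05. In either direction 1.06%, 0.626% and 2.43% of all tested probes were called. By the adjusted p alone, 16, 16 and 14 of the 37 rose, against 2.42%, 1.37% and 6.03% of all tested probes. Every mouse of the dose group lay above every control mouse in 14, 18 and 15 genes, against 4.73%, 2.51% and 7.47% of all tested probes. An overall test of any dose against D0 (limma's F test) was passed by 16 of 37, against 7.79% of all tested probes. The 3 comparisons share the D0 mice. In whole lung RNA, more cells in cycle and more RNA per cell cannot be told apart.

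The calls, more than the direction of the changes, depended on how the arrays were scaled and on single mice. With 1 mouse left out in turn, the median change lay between 0.31 and 0.39 at D1, 0.35 and 0.42 at D2, and 0.21 and 0.32 at D3, with at least 32 of 37 genes above 0. With each array centred on its median in place of loess, limma called 0 genes and 0 passed the adjusted p at any dose (25, 22 and 12 had an unadjusted p under 0.05, and the lowest adjusted p was 0.226, 0.155 and 0.201), although the gene medians were then 0.59, 0.56 and 0.43. That setting put the median of all probes at 0.17, 0.12 and 0.06, so the gene medians relative to it were 0.42, 0.44 and 0.37, and the median standard error of the genes at D1 was 0.24 in place of 0.11. With the processed signals of the scanner software 8, 10 and 5 genes were called, without Rrm2 at D3, while calls over all tested probes went from 328, 194 and 754 to 639, 348 and 1370, and 14, 17 and 13 genes passed the adjusted p alone. Without mouse 22, 7 genes were called at D1, and without mouse 29, 7 at D2. Without mouse 21, 8 genes passed the adjusted p at D1. Without mouse 35, Uhrf1 alone was called at D3 and 7 genes passed the adjusted p there, while Rrm2, Chaf1a, Fen1, E2f8, Ccne1, Dut and Mcm3 no longer did. The same counts were found at D3 without mice 24, 28 and 35 together. The D3 change was smaller without mouse 35 in 31 of the 37 genes, with a median of 0.21 in place of 0.28. It moved by over 1.5 times or turned its sign in 17 of them, of which Rrm2 and Ccne1 had passed the adjusted p at D3.

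**Figure D1:**
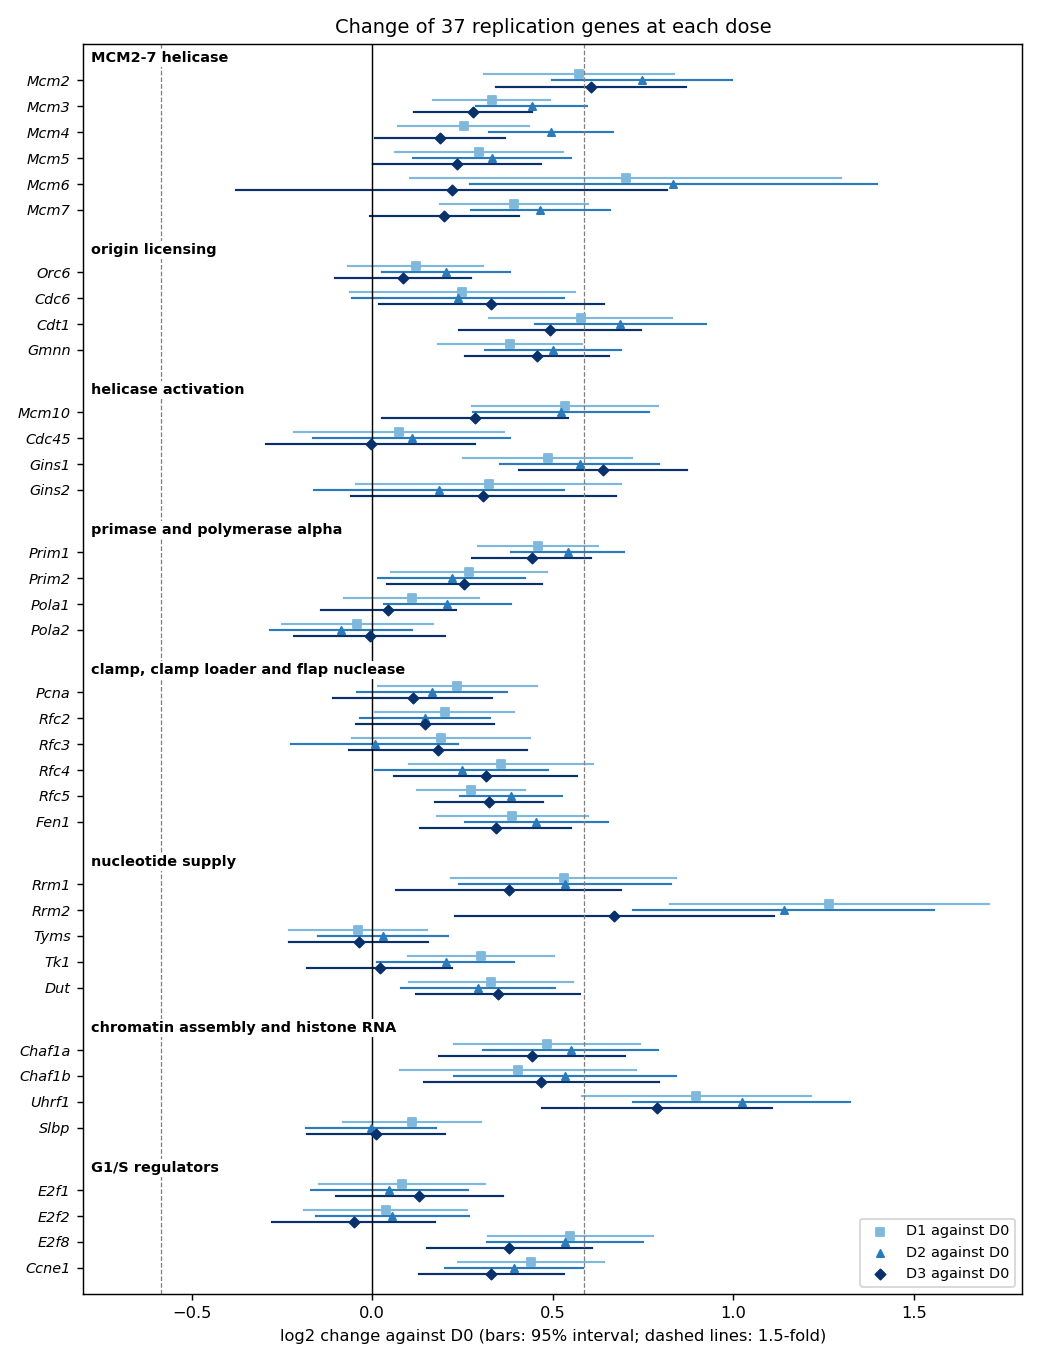
Log2 change against the vehicle control of the 37 tested genes (rows, grouped by role) at D1, D2 and D3 (light to dark), with 95% intervals from limma. Nearly all points lie to the right of 0, few pass the dashed line at 1.5-fold, and Rrm2 and Uhrf1 lie farthest out at D1 (1.27 and 0.90).

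Among the genes that supply deoxynucleotides, Rrm2 had the largest change of the whole list at D1 and D2. It encodes the small subunit of ribonucleotide reductase, whose amount limits the making of DNA building blocks. Rrm2 (NM_009104) measured -4.29, -4.37, -4.22, -4.01 and -4.17 in the D0 mice, -3.19, -3.48, -2.51 and -2.60 in D1, -3.04, -3.20, -3.07, -3.05 and -2.99 in D2, and -3.92, -3.96, -3.58 and -2.70 in D3. All treated mice lay above all controls, the D2 mice lay close together, and in D3 mouse 35 lay far above the other 3. Rrm2 rose by 1.27 ± 0.21 (log2 change ± SE) at D1, 1.14 ± 0.20 at D2 and 0.67 ± 0.21 at D3, which is 2.40-, 2.20- and 1.59-fold (limma adjusted p = 0.0023, 0.00411 and 0.0433). The D3 call was near the threshold and was lost without any 1 of 10 mice, among them mouse 35 (0.39, limma adjusted p = 0.172).

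Rrm1, the large subunit of the same enzyme, was at -2.44 ± 0.20 in D0 (SD, n = 5) and -1.91 ± 0.27 in D1 (n = 4). Its change of 0.53 ± 0.15 (SE) at D1 passed the adjusted p alone (limma adjusted p = 0.0467), and its changes of 0.53 ± 0.14 at D2 and 0.38 ± 0.15 at D3 (0.22 without mouse 35) did not (0.0543 and 0.108). Dut, which clears dUTP from the nucleotide pool, rose by 0.35 at D3 (limma adjusted p = 0.0408) and had changes of 0.33 and 0.29 at D1 and D2 that did not pass. Tk1, the salvage kinase for thymidine, had changes of 0.30, 0.20 and 0.02, none past the threshold. Without mouse 35 its D3 change was -0.07 and its D1 change, still 0.30, passed the adjusted p (0.0467). Tyms, which makes thymidylate, lay within 0.04 of the control mean at every dose, with an interval of the D1 change from -0.23 to 0.15.

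In the group that restores chromatin, Uhrf1 was the leading gene. Its protein binds hemimethylated DNA behind the fork and brings in the maintenance DNA methyltransferase. Uhrf1 (NM_010931) measured -4.34, -4.24, -4.18, -4.12 and -4.21 in D0, -3.45, -3.52, -3.31 and -3.01 in D1, -3.35, -2.93, -2.77, -3.57 and -3.37 in D2, and -3.55, -3.52, -3.63 and -3.03 in D3. The control mice lay close together (SD 0.08, n = 5) and every treated mouse lay above all of them. Uhrf1 rose by 0.90 ± 0.15 (SE), 1.02 ± 0.14 and 0.79 ± 0.15 at the 3 doses (limma adjusted p = 0.00254, 0.000576 and 0.00235), and the call held at every dose whichever 1 mouse was left out. A second, dimmer Uhrf1 probe (NM_001111079) was well above background in 9 mice and changed by 0.16, 0.09 and 0.13 (limma adjusted p of 0.487 to 0.78), so the probes of this gene disagreed. Chaf1a, the large subunit of the chromatin assembly factor that loads new histones, measured -2.97, -2.74, -3.02, -2.80 and -2.74 in D0, -2.43, -2.37, -2.41 and -2.28 in D1, -2.32, -2.05, -1.97, -2.74 and -2.44 in D2, and -2.52, -2.40, -2.50 and -2.23 in D3. Only D2 mouse 29 reached the range of the controls. Chaf1a rose by 0.48 ± 0.12 (SE), 0.55 ± 0.12 and 0.44 ± 0.12 (limma adjusted p = 0.0299, 0.016 and 0.023). For its partner Chaf1b the brighter probe had changes of 0.40, 0.53 and 0.47 that did not pass, while the second probe was called at D2 (0.62) and D3 (0.62, and 0.48 without mouse 35, where it was not called). Slbp, which binds the stem loop of histone transcripts, stayed within 0.11 of the control mean, and its D1 interval ran from -0.08 to 0.30.

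The MCM helicase, the ring that unwinds DNA, is encoded by 6 genes, and 3 rose by the adjusted p alone at D1, 4 at D2 and 2 at D3. Mcm2 (NM_008564) measured -2.55, -2.54, -2.64, -2.62 and -2.39 in D0, -1.86, -2.16, -1.93 and -1.96 in D1, -1.80, -1.69, -1.52, -2.13 and -1.87 in D2, and -2.05, -1.85, -2.28 and -1.59 in D3. The control and treated groups did not overlap. Its changes were 0.57 ± 0.13, 0.75 ± 0.12 and 0.61 ± 0.13 (SE), of which D1 passed the adjusted p but not 1.5-fold and the others were called (limma adjusted p = 0.0128, 0.00176 and 0.00404). The D3 call was lost without mouse 35 (0.49), without D3 mouse 32 (0.57) and without D0 mouse 3 (0.58), each time by the size of the change. Mcm3 rose at each dose (0.33, 0.44 and 0.28), Mcm7 at D1 and D2 (0.39 and 0.47) and Mcm4 at D2 (0.49), while the changes of Mcm5 (0.30, 0.33 and 0.23) passed at none.

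The changes of Mcm6 at D1 and D2 were larger than those of the other MCM helicase genes, with a wide spread. It measured -3.84, -2.64, -2.98, -2.40 and -2.84 in D0, -2.42, -2.30, -1.88 and -2.34 in D1, -2.26, -1.89, -1.65, -2.50 and -2.22 in D2, and -3.19, -3.02, -3.00 and -1.67 in D3. D0 mouse 1 lay far below the other controls and D3 mouse 35 far above the others of its group, and 3 of the 4 D3 mice lay below the D0 mean. Its changes of 0.70 ± 0.28, 0.83 ± 0.27 and 0.22 ± 0.28 (SE) did not pass (limma adjusted p = 0.17, 0.123 and 0.683). The D3 value turned to -0.13 without mouse 35, and the D2 change was then called (limma adjusted p = 0.0435).

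**Figure D2:**
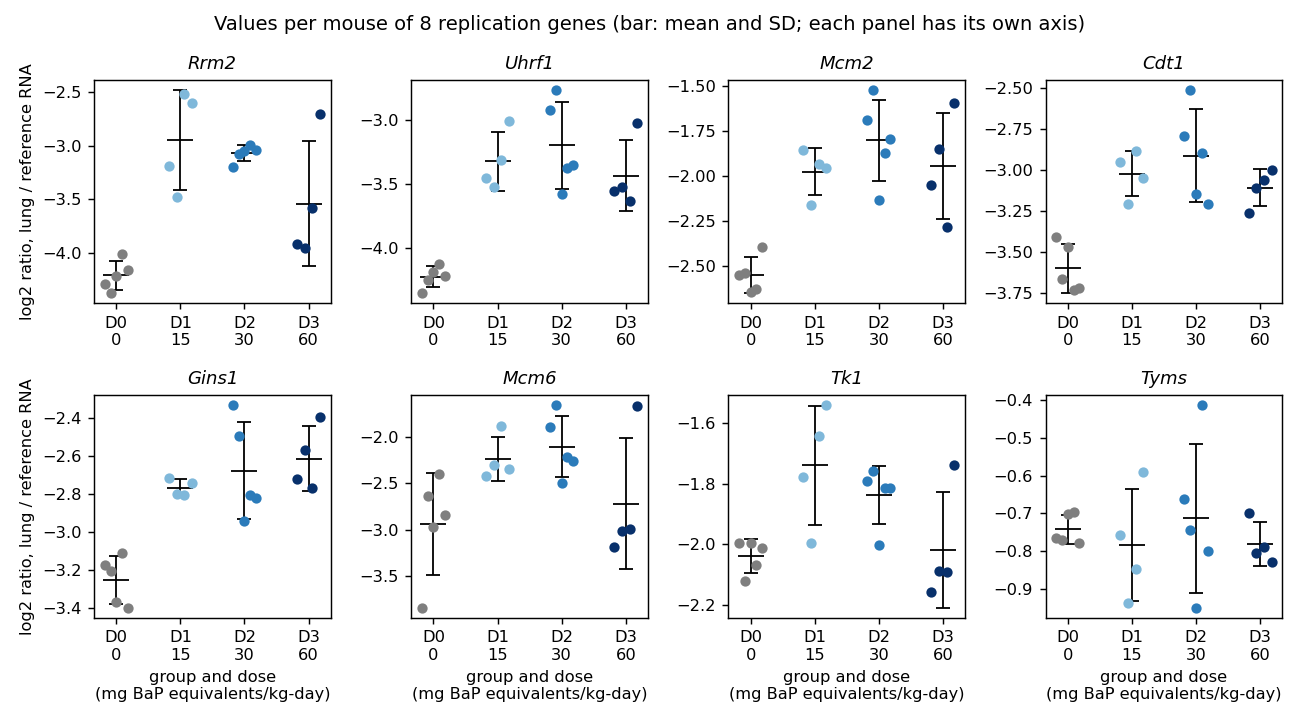
Log2 ratio of lung over reference RNA (y axis, one scale per panel) in each mouse of the 4 dose groups (x axis) for 8 replication genes; black bars show the mean and SD. Rrm2 and Uhrf1 separate all treated mice from the controls, mouse 35 is the top D3 point for Rrm2, Uhrf1, Mcm2, Cdt1, Gins1, Mcm6 and Tk1, and Tyms overlaps at every dose.

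Of the licensing genes, Cdt1 and Gmnn rose at every dose. Cdt1 loads the MCM ring, and geminin, the product of Gmnn, holds CDT1 back once S phase has begun. Cdt1 (NM_026014) measured -3.41, -3.66, -3.47, -3.73 and -3.72 in D0, -2.95, -3.20, -2.89 and -3.05 in D1, -3.21, -2.79, -2.51, -3.15 and -2.90 in D2, and -3.26, -3.11, -3.06 and -3.00 in D3. The treated mice lay above all controls, and the D3 mice, mouse 35 included, lay close together. Its changes were 0.58 ± 0.12, 0.69 ± 0.11 and 0.49 ± 0.12 (SE; limma adjusted p = 0.00935, 0.00273 and 0.0115), of which D2 was called. Gmnn went from -1.62 ± 0.04 in D0 (SD, n = 5) to -1.24 ± 0.11 (n = 4), -1.12 ± 0.21 (n = 5) and -1.16 ± 0.14 (n = 4), changes of 0.38 ± 0.10 (SE), 0.50 ± 0.09 and 0.46 ± 0.10 (limma adjusted p = 0.0271, 0.00517 and 0.00427). The changes of Cdc6, the other loading factor, were 0.25, 0.24 and 0.33, and those of Orc6, the smallest origin recognition subunit, 0.12, 0.20 and 0.09. None of them passed. The Cdc6 probe was well above background in the lung channel of 1 of 5 D0, 3 of 4 D1, 5 of 5 D2 and 2 of 4 D3 mice, so it entered the test through D2.

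Gins1 and Mcm10 led the helicase activators, while Cdc45, their partner in the active helicase, stayed near the control. Gins1 (NM_027014), a subunit of the GINS complex, measured -3.17, -3.21, -3.37, -3.11 and -3.40 in D0, -2.72, -2.80, -2.81 and -2.74 in D1, -2.82, -2.33, -2.49, -2.94 and -2.80 in D2, and -2.72, -2.57, -2.77 and -2.39 in D3. No treated mouse overlapped the controls. It rose by 0.49, 0.57 and 0.64 ± 0.11 (SE; limma adjusted p = 0.0171, 0.00593 and 0.00115), and the D3 change was called but was 0.57 without mouse 35, under 1.5-fold. Mcm10, which helps open the ring, measured -3.24, -3.06, -3.50, -3.29 and -3.25 in D0, -2.77, -2.91, -2.74 and -2.52 in D1, -2.86, -2.66, -2.42, -2.97 and -2.81 in D2, and -3.04, -3.06, -3.19 and -2.64 in D3. The D1 and D2 mice lay above all controls and the D3 mice overlapped them. Mcm10 rose by 0.53 ± 0.12 (SE) at D1 and 0.52 ± 0.12 at D2 (limma adjusted p = 0.0178 and 0.0217), and its D3 change of 0.28 ± 0.12 did not pass and was 0.17 without mouse 35. Gins2 had changes of 0.32, 0.18 and 0.31 and Cdc45 of 0.07 at D1 and 0.11 at D2 and close to 0 at D3, and none passed. The Cdc45 interval at D1 ran from -0.22 to 0.36, and its probe was well above background in 15 of the 18 mice.

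Primase and polymerase alpha split. Prim1, the catalytic primase subunit, measured -3.14, -3.21, -3.16, -3.18 and -3.22 in D0, -2.70, -2.80, -2.69 and -2.71 in D1, -2.74, -2.54, -2.46, -2.74 and -2.73 in D2, and -2.85, -2.89, -2.64 and -2.59 in D3. The spread of the controls was small (SD 0.03, n = 5) and no treated mouse overlapped them. Prim1 rose by 0.46 ± 0.08 (SE), 0.54 ± 0.07 and 0.44 ± 0.08 (limma adjusted p = 0.00276, 0.000505 and 0.00139), which stayed under 1.5-fold. Its partner Prim2 had changes of 0.27 ± 0.10 (SE), 0.22 ± 0.10 and 0.25 ± 0.10 and Pola1, the catalytic polymerase subunit, of 0.11, 0.21 and 0.04, none of which passed. Pola2, the regulatory polymerase subunit, lay at -0.04, -0.09 and -0.01, with a D1 interval from -0.25 to 0.17, and was well above background in 12 of the 18 mice.

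Of the clamp genes, Rfc5, a clamp loader subunit, rose by 0.27, 0.38 and 0.32 (limma adjusted p = 0.033, 0.00409 and 0.00572), and Fen1, the nuclease that trims Okazaki fragments, by 0.39 ± 0.10 (SE), 0.45 ± 0.09 and 0.34 ± 0.10 (0.032, 0.0147 and 0.0307). Pcna, the sliding clamp itself, had changes of 0.24, 0.17 and 0.11 that did not pass. The changes of Rfc2 and Rfc3 lay between 0.01 and 0.20 and did not pass either. Rfc4, a further loader subunit, measured -2.91, -2.84, -2.83, -2.93 and -2.72 in D0, -2.37, -2.82, -2.37 and -2.39 in D1, -2.53, -2.69, -2.29, -2.92 and -2.56 in D2, and -2.76, -2.48, -2.60 and -2.29 in D3. Every dose group overlapped the controls. Its changes of 0.36 ± 0.12 (SE), 0.25 ± 0.11 and 0.31 ± 0.12 did not pass (limma adjusted p = 0.0985, 0.316 and 0.101). A second Rfc4 probe had smaller changes (0.25, 0.14 and 0.08).

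Among the G1/S regulators, E2f8 and Ccne1 rose at every dose and E2f1 and E2f2 did not pass at any. E2f8 encodes an E2F that represses and Ccne1 the cyclin that starts S phase. E2f8 was at -3.55 ± 0.12 in D0 (SD, n = 5) and -3.00 ± 0.24 in D1 (n = 4), with changes of 0.55 ± 0.11 (SE), 0.53 ± 0.10 and 0.38 ± 0.11 (limma adjusted p = 0.0066, 0.0087 and 0.0277). Ccne1 was at -2.10 ± 0.06 and -1.66 ± 0.07, with changes of 0.44 ± 0.10 (SE), 0.39 ± 0.09 and 0.33 ± 0.10 (0.0126, 0.0269 and 0.0298). Without mouse 35 the D3 change of Ccne1 was 0.20 and did not pass (limma adjusted p = 0.11), and that of E2f8 was 0.35 (0.0869). The changes of E2f1, an activator, were 0.08, 0.05 and 0.13 (0.03 at D3 without mouse 35) and those of E2f2 0.04, 0.06 and -0.05 (-0.14), with D1 intervals from -0.15 to 0.31 and from -0.19 to 0.26.

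Whether the genes peaked at the lowest dose and fell back at the highest was asked next. The highest of the 3 dose means was at D1 in 12 genes, at D2 in 20 and at D3 in 5, where 10523, 10852 and 9619 of the 30994 tested probes did so. Between doses limma called 0 of the 37 genes in each comparison, with 1 gene at an unadjusted p under 0.05 for D2 against D1, 5 for D3 against D2 and 2 for D3 against D1. Over all tested probes 0%, 0.106% and 0.145% were called in these comparisons. An unadjusted p under 0.05 was reached by 3045, 3625 and 2379 of the 30994 probes. Calls over all probes were 58, 83 and 47 without mouse 28, in place of 0, 33 and 45. Without mice 24, 28 and 35 they were 87, 65 and 20. With all mice, D3 lay under D1 in 27 of 37 genes, with a median difference of -0.05. The 95% interval of D3 minus D1 included 0 in 35 genes and lay within 1.5-fold either way in 35, and it reached a median of 0.24 to each side. The exceptions were partly different genes. The interval lay below 0 for Rrm2 (-0.59, from -1.06 to -0.13) and Tk1 (-0.28, from -0.49 to -0.07), and it reached past 1.5-fold for Rrm2 and Mcm6 (-0.48, from -1.11 to 0.15). With 1 mouse left out the Mcm6 difference ranged from -0.83 (without mouse 35) to -0.32 (without D3 mouse 31). After adjustment over all probes neither Rrm2 nor Tk1 passed (limma adjusted p = 0.478 and 0.448).

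The order of the doses rested on the scaling and on a few mice. Under median centring 25 genes had their highest mean at D1 and D3 lay under D1 in 36 of 37, with a median of -0.16, of which -0.11 was the shift of all probes. Without mice 24, 28 and 35 the highest mean was at D1 in 19, at D2 in 15 and at D3 in 3 genes, without mouse 28 alone in 16, 15 and 6, without mouse 29 in 8, 26 and 3, and with mouse 23 counted in D1 in 9, 21 and 7. Mouse 35 had the highest value of the D3 mice in 29 of the 37 genes, mouse 28 that of the D2 mice in 25, mouse 29 the lowest of D2 in 27 and mouse 22 the lowest of D1 in 24. Without mouse 35, D3 lay under D1 in 30 of 37 genes (median -0.08), and still 0 were called. An unadjusted limma p under 0.05 was then reached by 7 genes for D3 against D1 and 11 for D3 against D2, in place of 2 and 5. Without mice 24, 28 and 35 these counts were 6 and 9. The lowest limma adjusted p for D3 against D1 without mouse 35 was 0.0734, in place of 0.448.

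**Figure D3:**
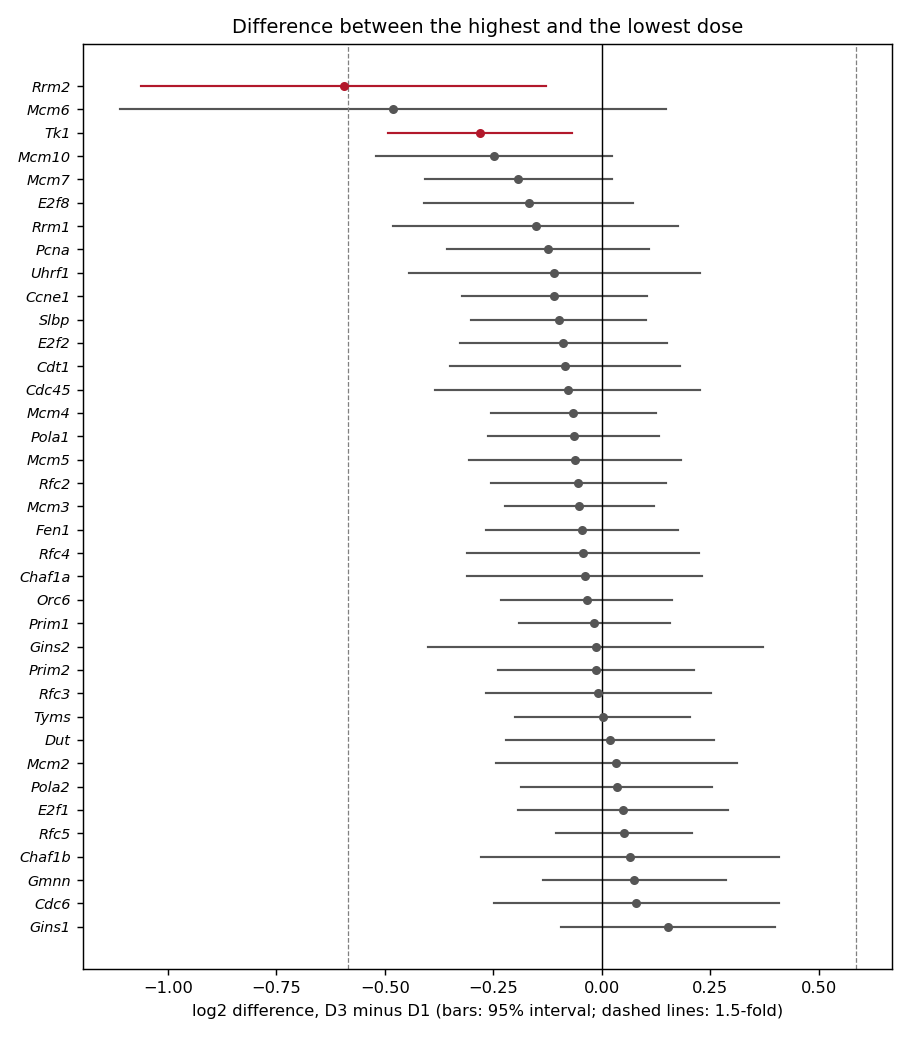
Log2 difference between D3 and D1 (x axis) for each of the 37 genes (rows, sorted), with 95% intervals; intervals that leave out 0 are red, and dashed lines mark 1.5-fold. Rrm2 and Tk1 are the 2 red genes, and 35 intervals include 0.

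Genes of mitosis, the phase after S phase, were set beside the list. Of 26 listed, 22 were tested, and limma called 14, 5 and 0 of them higher at the 3 doses in rising order (5 had an unadjusted p under 0.05 at D3), while 17, 8 and 1 passed the adjusted p alone, with medians of 0.71, 0.48 and 0.20. Their mean per mouse lay 0.37 to 0.98 above the control in D1, 0.24 to 0.71 in D2 and 0.02 to 0.45 in D3. The highest dose mean was at D1 in 21 of the 22 mitosis genes, and D3 lay under D1 in 22 of 22 (median -0.48), with 1 called, Cenpa, the centromeric histone (-0.65 ± 0.12, SE, limma adjusted p = 0.0246). These direction counts were the same or within 1 gene under median centring and without mice 24, 28 and 35. Mki67, the classic mark of cycling cells, measured -3.88, -3.89, -4.14, -3.76 and -3.86 in D0, -2.93, -3.02, -2.36 and -2.08 in D1, and -3.66, -3.77, -3.86 and -2.97 in D3, where 2 of the 4 mice lay within the range of the controls, 1 just above it and mouse 35 well above. It rose by 1.31 ± 0.19 (SE) at D1 and 1.01 ± 0.18 at D2 (limma adjusted p = 0.00107 and 0.00501), and its D3 change of 0.34 did not pass (0.273) and was 0.14 without mouse 35. Birc5 (survivin), Cdc20 and Kif20a, which act in chromosome separation, rose at D1 by 1.42, 1.05 and 0.99. The replication genes had a median D3 change of 0.28 against 0.33 at D1, and the mitosis genes 0.20 against 0.71. Whether the lists differ was not tested.

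**Figure D4:**
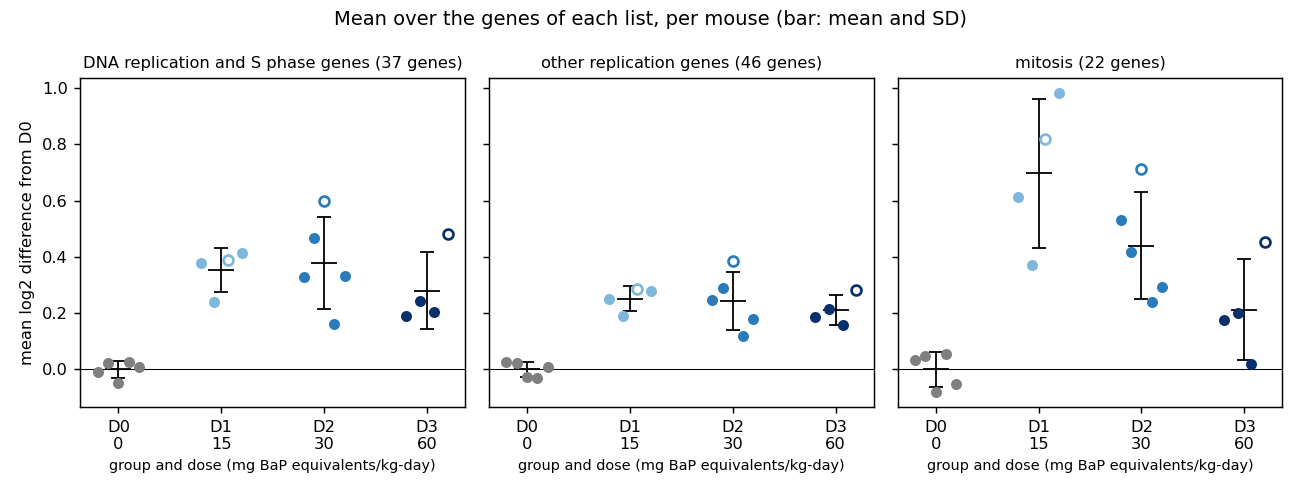
Mean log2 difference from the vehicle control per mouse (y axis) for the replication list, other replication genes and mitosis genes by dose group (x axis); bars show the mean and SD, and open circles are mice 24, 28 and 35. In D3 the means of the 37 replication genes span 0.19 to 0.48, those of the other replication genes 0.16 to 0.28 and those of the mitosis genes 0.02 to 0.45.

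A wider list of 50 replication genes outside the 40, of which 46 were tested, had smaller changes, with 39, 38 and 38 genes above 0. By the adjusted p alone 13, 15 and 10 rose and 1, 0 and 1 fell. The gene that fell was Mcmbp, which binds MCM proteins (-0.42 at D1 and -0.50 at D3). Of these, 5, 5 and 2 were called higher at the 3 doses, and the medians were 0.17, 0.19 and 0.20. Ccna2, the cyclin that runs from S phase into mitosis, had the largest D1 change (1.24 ± 0.18, SE, limma adjusted p = 0.00106) and a D3 change of 0.43 that did not pass (0.128) and was 0.25 without mouse 35. Among 11 tested pocket protein, repressor E2F and DREAM genes, 11, 10 and 10 lay above 0, and 4, 2 and 4 rose by the adjusted p alone. Of these 11, 1 was called, Lin9 at D2 (0.61), and the medians were 0.31, 0.27 and 0.21.

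Within groups, the genes moved together from mouse to mouse. After each group's mean was removed, the median correlation over 666 gene pairs and 18 mice was 0.39, and 0.50 once slide was removed too, against 0.65 and 0.73 over 231 pairs of mitosis genes. Uhrf1 followed the mean of the other genes most closely (r = 0.90) and Cdc45 least (r = -0.01). The genes of a mouse share 1 array and 1 piece of tissue, so these values are a description. On each slide taken alone, 30 to 36 of the 37 genes lay above the control mice of that slide at every dose, with medians of 0.22 to 0.53. The slides were not separate at D3, since mouse 35 had an array on slide 2 and the only D3 array on slide 3. Without it 32 genes (median 0.22) lay above the control on slide 1 and 31 (median 0.21) on slide 2, where 1 D3 mouse was left. With slide as a block the same genes were called as without it.

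Markers of other cells also differed from the controls in some dose groups. The mean of 8 T and NK cell genes, set against the control mean, lay between -0.80 and -0.14 in the treated mice, while the controls ranged from -0.38 to 0.33. The median change of the 8 genes was -0.30, -0.31 and -0.39, with 1, 2 and 2 genes above 0 (up to 0.44 at D3) and 1, 1 and 2 called lower. Over all 30994 tested probes 144, 59 and 380 were called lower at the 3 doses. Gzma, a granzyme of cytotoxic cells, lay lowest of the 8 (-1.60, -2.13 and -3.07, limma adjusted p = 0.0365, 0.00731 and 0.000159). The mean of 8 genes of neutrophils and their precursors lay 0.15 to 1.32 above the control mean in treated mice, against -0.27 to 0.59 in controls. Of these, 7 of 8 genes lay above 0 at every dose, with median changes of 0.69, 0.51 and 0.41, and 1, 0 and 2 called higher. The gene below 0 was Elane, a granule protease of early precursors (-0.07, -0.02 and -0.13). The mean of 8 alveolar macrophage genes lay between -0.51 and -0.14 in the D2 and D3 mice and between -0.26 and 0.21 in D1, with 3, 1 and 3 of 8 genes above 0 at the 3 doses (up to 0.94 at D3). Krt79 was the gene called lower at D3 (-1.40), and it was called lower against D1 and D2 too. The mean of 6 tested erythroid genes lay between -0.18 and 0.06 in D1, 0.10 and 0.34 in D2, and -0.11 and 0.56 in D3, where mouse 35 was the highest, and that of 6 B cell genes between -0.62 and 0.46 over the treated mice. The median changes of the B cell genes were 0.06, 0.16 and -0.20, with 3, 5 and 0 of 6 above 0, and Jchain, which joins secreted antibody chains, was called lower at D3 (-0.70). The mean of the 10 lung epithelium and endothelium genes lay between -0.53 and 0.38 in the treated mice, against -0.39 to 0.42 in the controls. Their median changes were -0.37, -0.07 and -0.32, with 2 of 10 genes above 0 at every dose and none called lower, and the endothelial adhesion gene Pecam1 was called higher at D1 (0.67) and D3 (0.66). Of 10 thymocyte genes 5 were tested, with median changes of -0.12, -0.10 and -0.18 and 1, 2 and 2 genes above 0 (up to 0.42 at D2). None was called, and 0, 1 and 1 were lower by the adjusted p alone, against 718, 223 and 1975 of all tested probes. The untested thymocyte genes Rag1 and Rag2 were well above background in 0 and 1 of 18 mice. The part of these cells in the rise of the replication genes was not tested.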

How the data were processed

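The deposited scanner files hold 2 kinds of intensity for each colour, the unnormalized median brightness of a spot and a processed signal after the scanner program's own background and dye steps. A deposited table for the whole series gives log2 ratios after the authors' LOWESS normalization. The software release and scanner in the file headers differ from those in the study's methods. Median signals without background subtraction were adjusted array by array with loess (span 0.3), without control and outlier spots, and averaged per probe. The ratios correlated with the authors' log2 table at 0.995 to 0.998 per array. A probe was tested where red was well above background in at least 4 mice of 1 group. No dyes were swapped, so levels against the reference are open to dye bias.

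Groups were compared in R 4.3.3 with limma 3.58.1 (lmFit, eBayes), in place of the study's MAANOVA, with Benjamini-Hochberg adjustment over 30994 probes. The script was tested on simulated data. The number of arrays limits the precision. Each gene was represented by the probe brightest in red. Symbols came from RefSeq accessions matched to GRCm38.p6 (27235 of 28685 probes with such an identifier). The array design names an older build, and no gene coordinates were taken from it. Full statistics are given for the 2 genes per role with the largest D1 change and for those called at D3. Of the other lists, up to 6 genes called at D1 and those called between doses are named, and further genes were named after their values were seen. The genes and lists were chosen with earlier results of these data known.

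Alternatives were normexp on median signals (offset 50, as no mean signals were used), processed signals, median centring, red alone, the authors' table, other filters, slide as a block, mouse 23 moved or left out, each array of mouse 35, pairwise fits, other probes, and each mouse left out. Leaving out mice 24, 28 and 35, and mouse 35 within slides, was added after seeing the data.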

Additional observations from a re-analysis of the deposited data

Results flagged for a closer look

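Of 64 sets of 4 or 5 mice (the genes given with full statistics, in each group), 3 held a mouse that stood apart from the rest of its group by Dixon's test at the 95% level, and chance gives about 1 in 20. Mcm6 in D3 was -1.67 in mouse 35, where the nearest other mouse was at -3.00. Prim1 in D1 was -2.80 in mouse 22 and Rfc4 in D1 was -2.82 in mouse 22, where the nearest others were at -2.71 and -2.39.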

How the results depend on the processing

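With processed signals 8, 10 and 5 genes were called (14, 17 and 13 by the adjusted p alone) and 639, 348 and 1370 of all probes, with red alone 4 at D1, and with the adjusted p alone 16, 16 and 14. Under median centring all counts were 0, by call, by adjusted p alone and by the F test, and calls over all probes dropped from 328, 194 and 754 to 12, 18 and 98. Without mice 24, 28 and 35, D3 had 1 call and 7 genes past the adjusted p. With 1 mouse left out, calls ranged from 2 to 7 at D1 (7 without mouse 22, 4 without D0 mouse 2), from 4 to 7 at D2 (7 without mouse 29) and from 1 to 4 at D3 (1 without mouse 35, 2 without D0 mouse 3). By the adjusted p alone they ranged from 8 to 17 at D1 (8, 10 and 9 without mice 21, 24 and 25), 13 to 19 at D2 and 7 to 15 at D3 (7 without mouse 35, 9 without D0 mouse 3), and the F test from 13 to 19. Between doses the count was 0 in every setting run, and the count of genes below the reference was 35 to 39 over all settings. Mcm6 at D3 ranged from -0.13 (without mouse 35) to 0.38 (without D3 mouse 31) with 1 mouse left out, was -0.0055 without D0 mouse 1, and was -0.13 without mice 24, 28 and 35. Of 728 values of named genes under other settings 689 kept direction and side of the threshold, and of 936 with 1 mouse left out 900 did. The cause of these shifts was not tested. No paired analysis was possible because no mouse number is shared between groups. The median standard error of a gene's change at D1 was 0.11.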
